A study of Homo sapiens with 12 samples.

Results

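The genes described here set the pace of the G1 phase: the D-type cyclins CCND2 and CCND3, the E-type cyclin CCNE1, the kinase CDK6, the CDK inhibitors CDKN1B (p27), CDKN1C (p57), CDKN2A (p16 and ARF), CDKN2B (p15) and CDKN2C (p18), and the retinoblastoma gene RB1. They are 10 of the 59248 rows of the deposited gene tables, chosen by their symbols and each matched to a single Ensembl identifier. RNA was sequenced from SJSA-1, an established human osteosarcoma cell line known for amplification of MDM2 and CDK4. The sh1 group has 6 libraries of cells stably expressing RUNX2 shRNA-1, picked by the authors as the most effective of several, and the shNC group 6 libraries of cells stably expressing a scramble shRNA. Both groups were infected with lentivirus carrying EGFP and a puromycin resistance gene and kept under puromycin until all cells were EGFP-positive, so each group is a selected pool, and a single shRNA against RUNX2 is set against a single control. The comparison asks which G1 genes differ when RUNX2, a transcription factor of osteoblast differentiation, is reduced. Since these are bulk libraries, fewer cells expressing a gene and less RNA per cell cannot be told apart.

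In G1, D-type cyclins bind CDK4 or CDK6 and cyclin E binds CDK2, and these kinases phosphorylate the RB1 protein. Unphosphorylated RB1 holds E2F factors back from the genes of DNA synthesis. The INK4 inhibitors (CDKN2A, CDKN2B, CDKN2C) bind CDK4 and CDK6, while the CIP/KIP inhibitors (CDKN1B, CDKN1C) bind cyclin-CDK complexes, with cyclin E-CDK2 as a main target. In osteoblast biology, RUNX2 is known as a factor that restrains growth when normal osteoblasts leave the cycle, and in osteosarcoma loss of RB1 or of CDKN2A is a common lesion.

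Promoter sequences are shown for CDKN1B and CDK6, which the test called in opposite directions and for which RefSeq (GRCh38.p14) gives the bases before a start. The CDK6 start is the first base of the gene in the annotation, while the CDKN1B start, at position 12717368, lies inside the longer GENCODE gene. Each is the 250 bases before the transcription start, 5′ to 3′ on the gene's strand, with E2F core matches in capitals. The CDKN1B stretch lies at chr12:12717118-12717367, plus strand, and the CDK6 stretch at chr7:92836574-92836823, minus strand.
CDKN1B: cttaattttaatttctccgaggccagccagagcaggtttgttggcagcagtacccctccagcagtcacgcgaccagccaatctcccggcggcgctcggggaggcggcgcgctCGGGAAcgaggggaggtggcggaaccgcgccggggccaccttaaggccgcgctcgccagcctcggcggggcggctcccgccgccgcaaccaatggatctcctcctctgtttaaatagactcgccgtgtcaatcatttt
CDK6: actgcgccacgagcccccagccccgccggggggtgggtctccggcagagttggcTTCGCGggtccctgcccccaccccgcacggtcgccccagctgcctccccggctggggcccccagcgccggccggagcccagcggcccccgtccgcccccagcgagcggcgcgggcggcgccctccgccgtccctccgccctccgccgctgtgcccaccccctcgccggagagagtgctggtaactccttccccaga

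The capitals mark CGGGAA in CDKN1B, which is TTCCCG on the other strand and begins 138 bases before the start. In CDK6 they mark TTCGCG, which begins 196 bases before the start. RefSeq entries were matched for 8 of the 10 genes, with 14 windows in all because several genes have alternative starts. CCND2 and CDKN1C had no entry, and the RB1 window belongs to a start far inside the gene, at position 48476450, so it is not shown. A RUNX core, either TGTGGT or the related form TGCGGT on either strand, was in 0 of the 14 windows and in 16.3% of all 35116 windows of this length. An E2F core on either strand (TTCGCG, the related form TTCCCG, or the form written TTGGCG) was in 4 of the 14, one each of CDKN1B, CDK6, CDKN2A and CDKN2C, and in 23.1% of all windows. The sequence GGGCGG, the GC box bound by SP1, was in 9 of the 14 windows, from 7 genes, and in 42.6% of all windows. The E-box CACGTG was in 2 of the 14, both alternative starts of CDKN2C, and in 6.34% of all windows. The cyclic AMP element core TGACGT was in 3 of the 14, from 2 genes (CDKN2C and CDK6), and in 7.1% of all windows. No match of one motif overlapped a match of another in the 14 windows. These are matches of letters in a short window and not binding sites.

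Libraries held between 11239638 and 16346022 gene counts in sh1 and between 15328312 and 19992974 in shNC. The lowest total was that of sh1 replicate 3, which also had 1.23% of its counts in rows without an Ensembl identifier, against 0.468% to 0.531% in the other sh1 libraries and 0.508% to 0.576% in shNC. RUNX2, the targeted gene, was at 21.6 to 27.4 CPM in sh1 (median 24.8) and at 35.5 to 46.2 CPM in shNC (median 37.7), where CPM are counts scaled to library size with TMM factors, a log2 fold change of -0.69 (adjusted p = 4.61e-06 from edgeR). The labelled cell type was checked against 8 osteoblast markers, of which 4 could be tested, with SPARC and COL1A1 higher in sh1 and COL1A2 and SPP1 not passing. SPARC was the most abundant (474 FPKM in sh1 and 297 FPKM in shNC, means of 6 libraries), COL1A1 was at 1.66 FPKM in sh1 and 0.590 FPKM in shNC, and the part of these markers in the results below was not tested. SP7, ALPL and IBSP, also among these markers, had 1, 1 and 0 counts over all sh1 libraries and 0, 3 and 0 counts over all shNC libraries. BGLAP had 13 counts over all 12 libraries. Of 9 markers of leukocytes, endothelium, epithelium and fat, 2 had enough counts to be tested and neither was called. KRT18 was the most abundant of them and was at 166 ± 10.8 CPM in sh1 and 161 ± 10.95 CPM in shNC (SD, n = 6 each).

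Of the 10 genes, 7 had enough counts to be tested, and 4 of these passed an adjusted p of 0.05 in edgeR's quasi-likelihood test over all genes: RB1 and CDKN1B were higher in sh1, and CCND2 and CDK6 were lower. Over all 16489 genes tested, 26.1% passed, with 12.8% higher and 13.3% lower. The fold changes were small, from 64.9% of the shNC level for CCND2 to 127% for RB1. CCNE1, CCND3 and CDKN2C did not pass. CDKN1C, CDKN2A and CDKN2B were left out by the filter on low counts. In RB1 and CCND2, 2 of the 7 genes, no sh1 library lay within the shNC range in CPM, against 11.9% of all genes tested. In the authors' FPKM this also held for RB1, while the CCND2 ranges of the groups overlapped. Without sh1 replicate 3, the same number of genes was called, 2 higher and 2 lower. Over the 12 fits that each left out a library, RB1 and CCND2 were called in all. The call of CDK6 was lost in 5 of these fits and that of CDKN1B in 1. No label says that libraries of one group are separate cultures, so the p-values rest on the spread among these 12 libraries, and that spread may be technical.

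**Figure D1:**
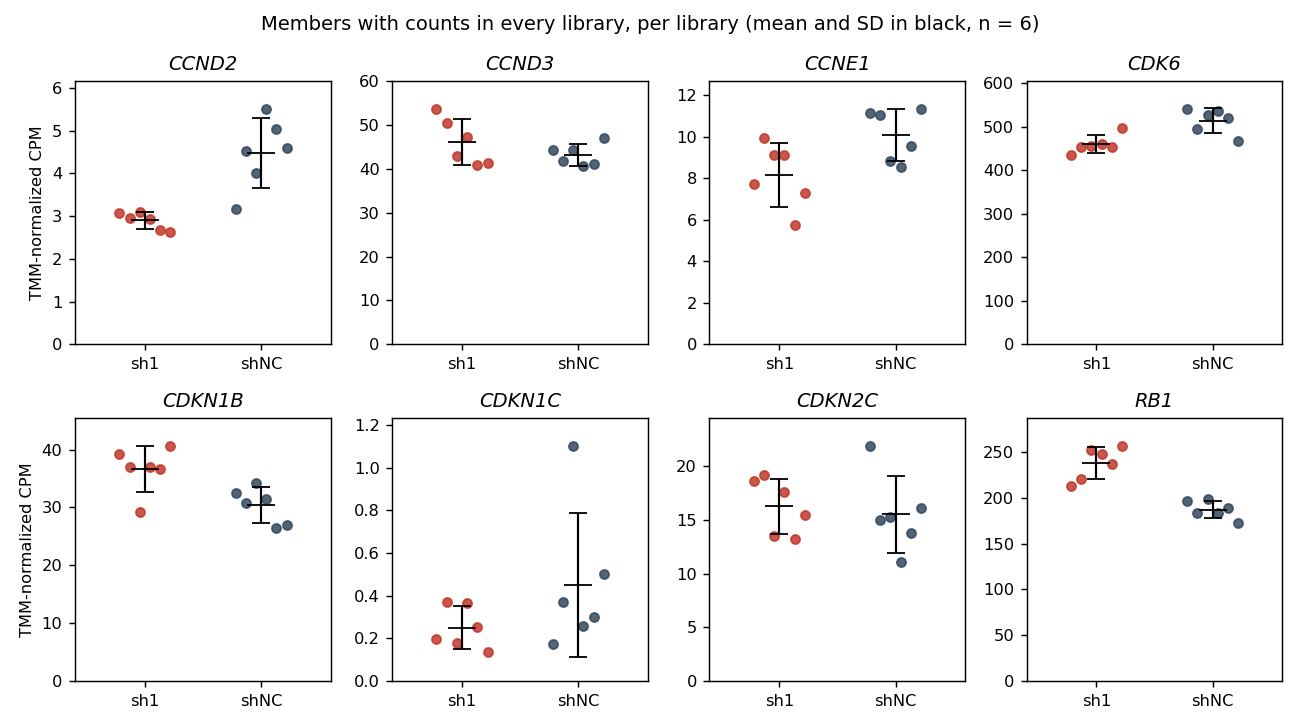
TMM-normalized CPM of the 8 genes with counts in every library, with a point per library, sh1 on the left and shNC on the right of each panel, and the mean and SD (n = 6) in black. RB1 lay at 213 to 257 CPM in sh1 and at 172 to 199 CPM in shNC, without overlap, and CCND2 at 2.64 to 3.09 CPM in sh1 and at 3.17 to 5.502 CPM in shNC.

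Levels were compared between genes on the FPKM scale, which divides by gene length. The length implied by the authors' FPKM exceeded the canonical transcript, at 5802 against 2026 bases for CCND3 and 3318 against 995 for CDKN2C. It was 2811 against 2411 bases for CDKN1B, 6452 against 4768 for RB1 and 12260 against 11663 for CDK6. The order of genes given here rests on the authors' lengths and may differ with others. CDK6 was the most abundant of the 10 genes, at 37.6 ± 1.78 FPKM in sh1 and 41.6 ± 2.10 FPKM in shNC (SD, n = 6 each). RB1 came next, at 37.0 ± 2.83 FPKM in sh1 and 28.8 ± 1.31 FPKM in shNC. In sh1 the ranges of CDK6 (35.5 to 40.9) and RB1 (33.1 to 40.1) overlapped, so their order was not resolved there, whereas in shNC CDK6 (38.1 to 44.1) lay above RB1 (26.8 to 30.8) in every library. CDKN1B followed at 13.1 FPKM in sh1 and 10.7 FPKM in shNC, and CCND3 at 7.97 FPKM in sh1 and 7.39 FPKM in shNC. CDKN2C (4.91 FPKM in sh1, 4.62 in shNC) and CCNE1 (3.21 FPKM in sh1, 3.91 in shNC) did not overlap in sh1 but overlapped in shNC. CCND2, at 0.406 FPKM in sh1 and 0.621 FPKM in shNC, was the least abundant gene that was tested. In shNC its range (0.425 to 0.775 FPKM) reached down into that of CDKN1C, whose highest value (0.444 FPKM) was in shNC replicate 3. Within each shNC library CCND2 was above CDKN1C.

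**Figure D2:**
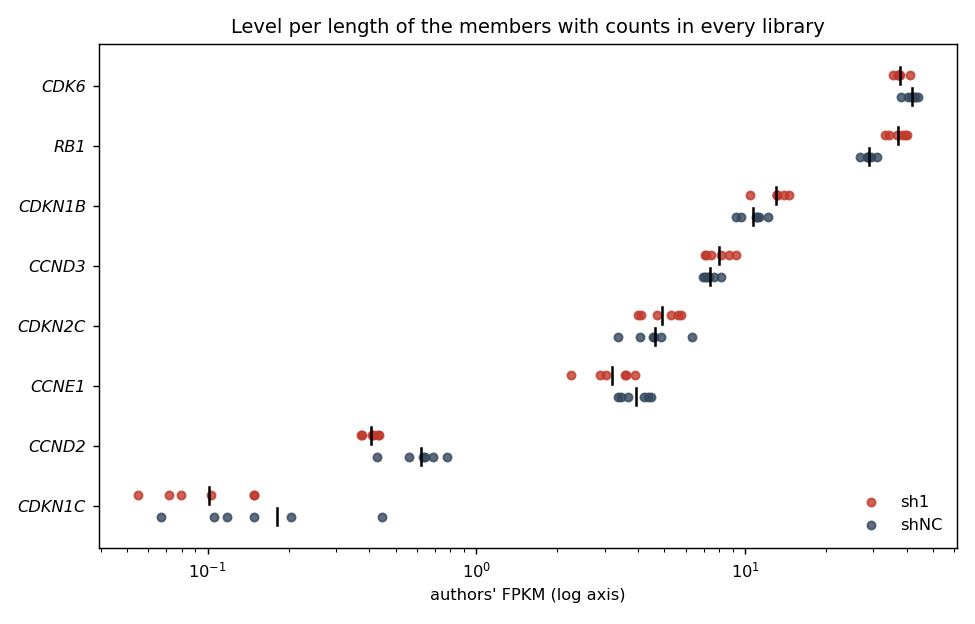
Level per gene length in the authors' FPKM, on a log axis, for the 8 genes with counts in every library. Points are libraries, with sh1 above shNC, and black lines are group means. From CDK6 to CDKN1C the means run from 37.6 to 0.101 FPKM in sh1 and from 41.6 to 0.181 FPKM in shNC.

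RB1, the pocket protein that binds E2F factors (ENSG00000139687, chromosome 13 from 48303744 to 48599436, plus strand, GRCh38, with 27 exons in its canonical transcript), showed the smallest p-value of the 10 genes. It was at 213 CPM in the lowest sh1 library, 243 at the median and 257 in the highest, and at 172, 186 and 199 CPM in shNC. Every sh1 library lay above every shNC library. On the log2 scale sh1 was 0.35 higher (standard error 0.055), with an adjusted p of 0.000177 from edgeR. The two-sided exact permutation p was 0.0022, the smallest that 6 against 6 libraries allow. RB1 passed under all 25 alternatives tried, with log2 fold changes from 0.32 to 0.39. LPAR6, a lysophosphatidic acid receptor gene, lies on the opposite strand within RB1 and shares no exon bases with it, and was at 2.29 CPM in sh1 and 2.28 CPM in shNC. RCBTB2 also lies within RB1 on the opposite strand, and neither it nor LPAR6 passed. Of the genes beside RB1, ITM2B, a membrane protein gene, was higher in sh1 (log2 fold change 0.23, adjusted p = 0.0149 from edgeR), and MED4 did not pass.

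The libraries' deviations from their group means in RB1 were most like those of ZBTB38, a zinc finger protein (Pearson r = 0.947, Spearman rho = 0.909), of CTDSPL2, a phosphatase-like protein (r = 0.945, rho = 0.958), and of HLTF, a helicase-like transcription factor (r = 0.933, rho = 0.881). These were the highest of 10325 genes searched over the 12 libraries, which share depth and preparation between genes, and they are given as a description. Between the groups themselves the 3 genes did not move alike, with log2 fold changes of -0.18 for ZBTB38 (adjusted p = 0.012 from edgeR), 0.21 for CTDSPL2 (adjusted p = 0.010) and -0.04 for HLTF (adjusted p = 0.61).

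CDK6, a catalytic partner of the D-type cyclins (ENSG00000105810, chromosome 7 from 92604921 to 92836573, minus strand, 8 exons), was at 435, 456 and 498 CPM in sh1 (lowest, median and highest library) and at 467, 524 and 540 CPM in shNC. The groups overlapped, since sh1 replicate 6 lay above shNC replicates 2 and 6. The log2 fold change of -0.16 (standard error 0.049) had an adjusted p of 0.021 from edgeR and an exact two-sided permutation p of 0.0065, with a level 89.4% of that in shNC. The direction was the same under all 25 alternatives, but the call was lost without sh1 replicate 1 (adjusted p = 0.058), sh1 replicate 2 (0.055), sh1 replicate 5 (0.060), shNC replicate 3 (0.053) or shNC replicate 5 (0.055).

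RB1 and CDK6 moved in opposite directions, and the ratio of their FPKM values was 0.984 ± 0.0499 in sh1 (0.924 to 1.05) and 0.692 ± 0.0229 in shNC (0.650 to 0.717; SD, n = 6 each). This ratio was computed after the values had been seen and is given without a test. Its size rests on the gene lengths used in the FPKM, while which group is higher does not.

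Among the D-type cyclins, CCND2 (ENSG00000118971, chromosome 12 from 4269771 to 4305353, plus strand, 5 exons) was at 2.64, 2.95 and 3.09 CPM in sh1 and at 3.17, 4.56 and 5.502 CPM in shNC. The highest sh1 library lay just below the lowest shNC library, replicate 1, which had 55 counts. The other shNC libraries had 73 to 86 counts and the sh1 libraries 35 to 48 counts. In FPKM the groups overlapped, since the highest sh1 library (0.435) lay above the lowest shNC library (0.425). The log2 fold change of -0.62 (standard error 0.14) had an adjusted p of 0.00265 from edgeR. The exact two-sided permutation p on the CPM values was 0.0022. CCND2 thus lay apart on the CPM scale only. The gene was called under all 25 alternatives, with log2 fold changes of -0.70 (without shNC replicate 1) to -0.55 (without shNC replicate 4) in the fits to counts. The log2 fold change was -0.20 on the log2(FPKM + 1) scale, which understates the change of a gene this low. Of its 7988 exon bases, 999 are shared with a gene on the same strand (ENSG00000285901), which had 3 counts in all 12 libraries against 722 for CCND2.

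CCND3 (ENSG00000112576, chromosome 6 from 41934934 to 42050357, minus strand, 5 exons), which has the same role, was at 40.9, 45.2 and 53.7 CPM in sh1 and at 40.6, 43.0 and 47.0 CPM in shNC. The groups overlapped, with sh1 replicates 1, 2 and 4 above every shNC library and the other sh1 libraries within the shNC range, and the log2 fold change of 0.09 (standard error 0.071) did not pass (adjusted p = 0.35 from edgeR). CCND1, the D-type cyclin with the highest level in these cells, was lower in sh1, at 465 ± 50.7 CPM, against 679 ± 65.2 CPM in shNC (SD, n = 6 each). On the log2 scale this was -0.55 (adjusted p = 3.64e-05 from edgeR). CCND1 made up 92.0% ± 0.938 of the summed FPKM of CCND1, CCND2 and CCND3 in sh1 and 94.5% ± 0.523 in shNC. CCND3 made up 7.64% ± 0.917 in sh1 and 5.04% ± 0.479 in shNC, and CCND2 0.388% ± 0.0257 in sh1 and 0.425% ± 0.102 in shNC. In the shares of CCND1 and CCND3 the groups were apart in every library, and in that of CCND2 they overlapped. With so little CCND2, the shares of CCND1 and CCND3 nearly mirror each other, so their separation is a single observation. It does not show a change of CCND3 itself, which did not pass. These shares were also computed after the values had been seen. CDK4, the other kinase partner of these cyclins, was at 133 ± 15.1 CPM in sh1 and 137 ± 10.6 CPM in shNC and did not pass (log2 fold change -0.04, standard error 0.071, adjusted p = 0.71 from edgeR).

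**Figure D3:**
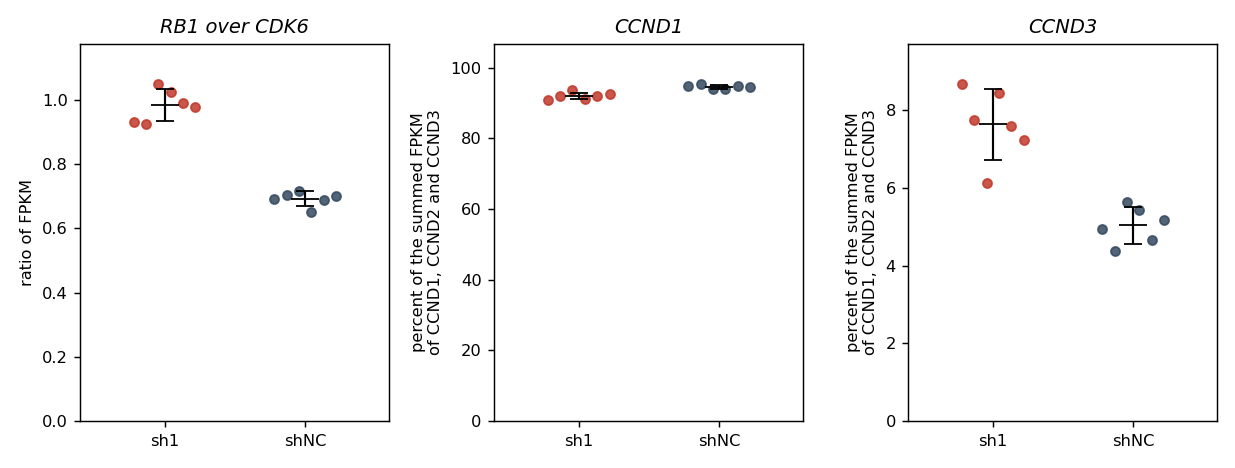
The FPKM ratio of RB1 over CDK6 (left) and the shares of CCND1 (middle) and CCND3 (right) in the summed FPKM of the 3 D-type cyclins, in percent, with a point per library, sh1 left of shNC, and the mean and SD (n = 6) in black. The ratio lies between 0.924 and 1.05 in sh1 and between 0.650 and 0.717 in shNC, and the CCND3 share between 6.12% and 8.67% in sh1 and between 4.37% and 5.65% in shNC. The shares of CCND1 and CCND3 nearly mirror each other.

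CCNE1, the cyclin that activates CDK2 at the end of G1 (ENSG00000105173, chromosome 19 from 29811991 to 29824312, plus strand, 12 exons), was at 5.74, 8.41 and 9.94 CPM in sh1 and at 8.54, 10.3 and 11.3 CPM in shNC. The groups overlapped, with sh1 replicates 2, 3 and 4 within the shNC range. The log2 fold change of -0.31 (standard error 0.12) did not pass (adjusted p = 0.077 from edgeR, exact two-sided permutation p = 0.039). It passed without sh1 replicate 2 (log2 fold change -0.36, adjusted p = 0.047). The paralog CCNE2 had a log2 fold change of -0.09 and CDK2 one of -0.12, and neither passed (adjusted p = 0.63 and 0.11 from edgeR).

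CDKN1B, the inhibitor p27 (ENSG00000111276, chromosome 12 from 12685498 to 12722369, plus strand, 3 exons), was at 29.2, 37.0 and 40.6 CPM in sh1 and at 26.5, 31.1 and 34.2 CPM in shNC. The sh1 libraries lay above every shNC library except for sh1 replicate 3, which lay within the shNC range. The log2 fold change of 0.27 (standard error 0.082) had an adjusted p of 0.0211 from edgeR and an exact two-sided permutation p of 0.017. Without sh1 replicate 3 it was 0.33 (adjusted p = 0.0023), and without shNC replicate 6 the call was lost (log2 fold change 0.24, adjusted p = 0.051). CDKN1A (p21), the other CIP/KIP inhibitor with a high level here, was also higher in sh1, at 239 ± 24.2 CPM, against 202 ± 22.02 CPM in shNC (SD, n = 6 each). The log2 fold change of CDKN1A was 0.24 (adjusted p = 0.0259 from edgeR, and 0.051 without shNC replicate 5).

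CDKN1C, the inhibitor p57 and an imprinted gene (ENSG00000129757, chromosome 11 from 2883213 to 2885775, minus strand, 4 exons), had 2 to 6 counts per library in sh1, 23 in all, and 3 to 22 counts in shNC, 49 in all. The 22 counts belong to shNC replicate 3, and the other 5 shNC libraries held 27. The levels of 0.250 ± 0.0998 CPM in sh1 and 0.451 ± 0.338 CPM in shNC overlapped (SD, n = 6 each, exact two-sided permutation p = 0.16). With no filter on low counts, the log2 fold change of CDKN1C in edgeR was -0.84 (adjusted p = 0.28). Of its neighbours at the imprinted locus, KCNQ1 and IGF2 had at most 1 count per group, while PHLDA2, a growth-restraining imprinted gene, was lower in sh1 at 9.61 ± 2.56 CPM, against 14.8 ± 0.761 CPM in shNC (log2 fold change -0.61, adjusted p = 0.00254 from edgeR). The histone chaperone gene NAP1L4 was also lower (log2 fold change -0.16, adjusted p = 0.00933), and KCNQ1OT1 and SLC22A18 did not pass.

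CDKN2A (ENSG00000147889, chromosome 9 from 21967752 to 21995301, minus strand, 3 exons) and CDKN2B (ENSG00000147883, chromosome 9 from 22002903 to 22009305, minus strand, 2 exons) were all but undetected. CDKN2A had 0 counts in sh1 and 1 count in shNC (replicate 2), and CDKN2B had 1 count in sh1 (replicate 4) and 0 counts in shNC. Over the 89400482 counts of the sh1 libraries a count of 0 allows up to 0.0336 CPM, and over the 105234609 counts of the shNC libraries up to 0.0285 CPM, taking 3 counts over the group as the floor and counting error only. A difference between the groups in these genes was not detectable at this depth. The 5 neighbours listed for this locus (MTAP, CDKN2B-AS1, DMRTA1, KLHL9 and IFNE) gave reads in all 12 libraries. KLHL9, an adaptor of a ubiquitin ligase, was at 19.7 FPKM in sh1 and 20.7 FPKM in shNC. MTAP, the methionine salvage enzyme gene next to CDKN2A, was at 0.0383 FPKM in sh1 and 0.0416 FPKM in shNC, with 48 counts over the sh1 libraries and 64 over the shNC libraries. On the other side of the pair, DMRTA1 was at 1.504 FPKM in sh1 and 1.28 FPKM in shNC. The long non-coding RNA CDKN2B-AS1 (ANRIL), which lies on the opposite strand across CDKN2B and overlaps 593 exon bases of CDKN2A, was at 1.399 FPKM in sh1 and 1.61 FPKM in shNC. None of the 4 neighbours with enough counts (CDKN2B-AS1, DMRTA1, KLHL9 and IFNE) passed the test, and without shNC replicate 3 there was 1 called higher.

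CDKN2C, the INK4 inhibitor p18 (ENSG00000123080, chromosome 1 from 50960745 to 50974634, plus strand, 2 exons), was at 13.3, 16.5 and 19.1 CPM in sh1 and at 11.1, 15.1 and 21.9 CPM in shNC. The sh1 libraries lay within the shNC range, and the log2 fold change of 0.07 (standard error 0.13) did not pass (adjusted p = 0.74 from edgeR). Its relative CDKN2D did not pass either (log2 fold change -0.13, adjusted p = 0.52). CDKN2C was thus the one of the 3 INK4 genes described here with a measurable level.

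The other genes of the pathway were counted in lists. Of 9 further G1 cyclins, kinases, inhibitors and pocket proteins, 2 were higher (CDKN1A and RBL2), 1 was lower (CCND1) and 6 did not pass, with a median log2 fold change of -0.05 against -0.0035 over all genes tested, of which 26.1% were called. RBL2 (p130), a relative of RB1, had a log2 fold change of 0.15 (adjusted p = 0.045), and the call was lost without any one of 7 libraries (sh1 replicates 4, 5 and 6 and shNC replicates 1, 2, 5 and 6, adjusted p = 0.052 to 0.094). Of 16 genes of the CDK-activating kinase, CDC25A, WEE1 and the ubiquitin ligases of G1 proteins, 2 were higher and 2 lower, a share near the 26.1% called over all genes. CDK7, the kinase that activates other CDKs, was at 60.9 ± 2.91 CPM in sh1 and 75.7 ± 4.62 CPM in shNC, a log2 fold change of -0.31, and its partner MNAT1 had a log2 fold change of -0.20 (adjusted p = 0.0143, and 0.056 without shNC replicate 5). CCNH, the cyclin of CDK7, did not pass (log2 fold change -0.05, adjusted p = 0.56 from edgeR). WEE1, which inhibits CDKs by phosphorylation, was higher (0.34), as was RNF123 (0.33), a ubiquitin ligase known to target p27. The F-box protein SKP2, which marks p27 for degradation, did not pass (log2 fold change -0.08, adjusted p = 0.601).

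Of 10 E2F and DP genes, 3 were lower and 2 higher (13.3% and 12.8% over all genes tested), with a median log2 fold change of 0.03. The activator E2F1 was at 26.2 ± 2.40 CPM in sh1 and 34.0 ± 3.87 CPM in shNC (SD, n = 6 each), or -0.38 on the log2 scale (adjusted p = 0.00234 from edgeR). The activator E2F2 (-0.42, adjusted p = 0.022) and the repressor E2F8 (-0.38) were lower too, and the DP subunit TFDP1 (0.20) and the activator E2F3 (0.13, adjusted p = 0.0497) were higher. The E2F2 call was lost without sh1 replicate 2, 3 or 5 or shNC replicate 1 or 2 (adjusted p = 0.050 to 0.058). With sh1 replicate 3, 4 or 5 or shNC replicate 1, 2, 3, 5 or 6 left out, 1 gene of this list was higher, not 2. Of 23 E2F target genes of the G1/S boundary, 10 were lower, none was higher and 13 did not pass, with a median log2 fold change of -0.19, against 13.3% lower and 12.8% higher over all genes tested. The lower genes included MCM5 of the replicative helicase at 69.8 ± 5.09 CPM in sh1 and 98.0 ± 13.5 CPM in shNC (-0.49), the polymerase clamp PCNA (-0.47), the helicase factor CDC45 (-0.38) and the loading factor CDC6 (-0.29). All sh1 libraries of PCNA (114.3 to 125.6 CPM) lay within its shNC range (113.7 to 217.5 CPM). The PCNA call was lost under 1 of the 25 alternatives (adjusted p = 0.092), though not by leaving out a library. For MCM5, PCNA, CDC45 and CDC6 alike, shNC replicate 1 was the highest shNC library. Of 6 genes of the MuvB core and its kinase DYRK1A, RBBP4 (-0.22) and LIN54 (-0.22, adjusted p = 0.0145, and 0.056 without shNC replicate 5) were lower and 4 did not pass, against 13.3% lower over all genes tested.

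Of 21 factors known to act on G1 genes, 6 were higher and 1 lower, and the other 14 did not pass, with a median log2 fold change of 0.11. Over all genes tested, 12.8% were higher and 13.3% lower. ID2, an inhibitor of basic helix-loop-helix factors, was at 8.82 ± 0.6998 CPM in sh1 and 5.27 ± 0.416 CPM in shNC (SD, n = 6 each), or 0.74 on the log2 scale (adjusted p = 1.57e-05 from edgeR). ID3 (0.39), the transcription factor FOXO1 (0.36), known to activate CDKN1B, and the signal transducer SMAD3 (0.30) were also higher, as were ETS2 (0.23) and the histone methyltransferase KMT2A (0.18), while EZH2 (-0.15), the methyltransferase of a Polycomb complex, was lower. No gene of this list was called lower without sh1 replicate 1, 2 or 6 or shNC replicate 1 or 4, and 2 were without shNC replicate 3. MYC, an activator of CCND2, had a log2 fold change of 0.20 and did not pass (adjusted p = 0.16).

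**Figure D4:**
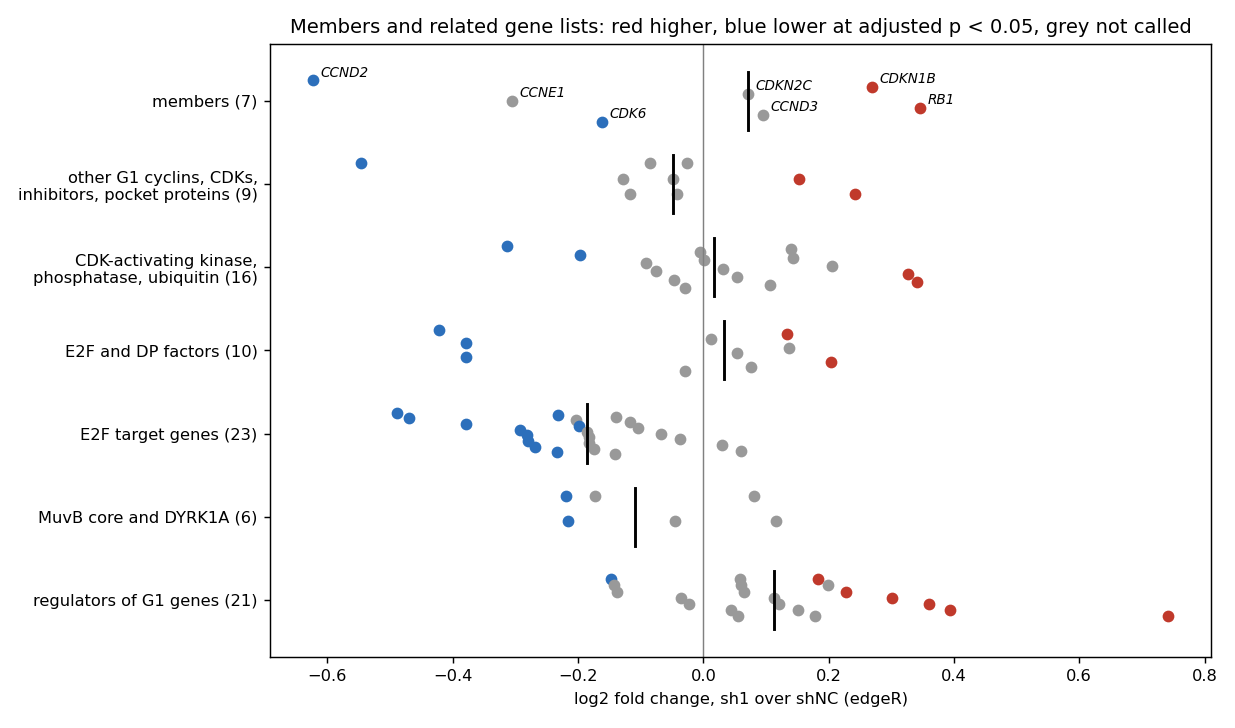
Log2 fold change, sh1 over shNC from edgeR, of each tested gene among the 10 described here and in 6 related lists, with the number tested in brackets. Red marks genes higher in sh1 and blue marks genes lower, each past the 0.05 threshold, with all others in grey. Black lines are medians, which run from -0.19 for the 23 E2F target genes to 0.11 for the 21 regulators.

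**Figure D5:**
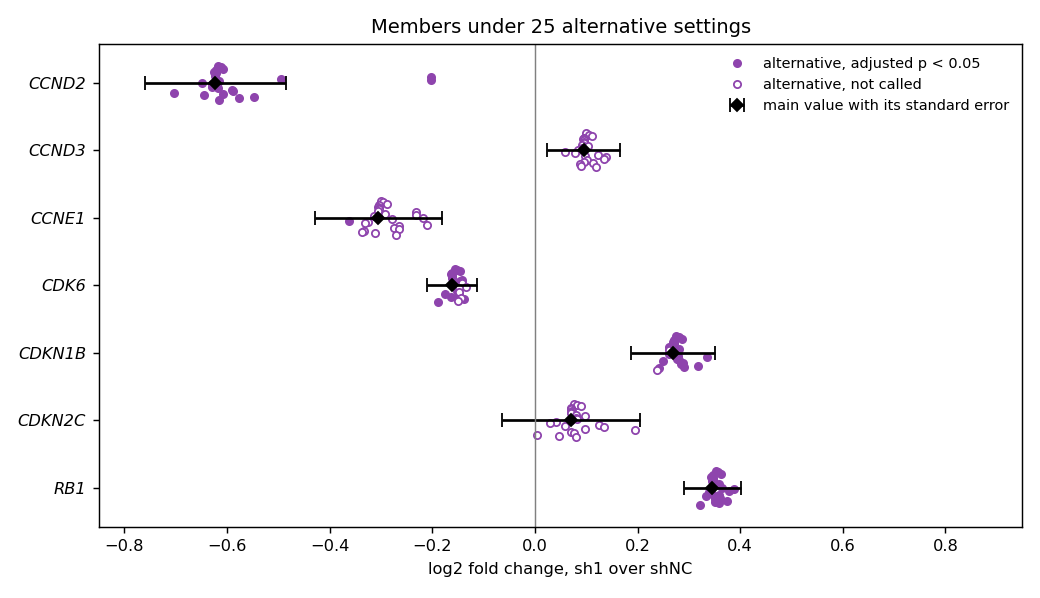
Log2 fold change, sh1 over shNC, of the 7 tested genes in the analysis reported here (black diamonds with the standard error) and under 25 alternative settings (filled purple circles passed an adjusted p of 0.05, open circles did not). RB1 (0.32 to 0.39) and CCND2 (-0.70 to -0.20) passed in all 25, CDKN1B in 22, CDK6 in 18, CCNE1 in 1, and CCND3 and CDKN2C in 0.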

How the data were processed

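Polyadenylated RNA of 12 SJSA-1 libraries was sequenced as read pairs with a kit that does not mark strand. Per the methods, the authors aligned the reads with HISAT2 to GRCh38 and calculated FPKM with featureCounts. They deposited whole-number gene counts, a signal (those same counts after division by DESeq2 size factors) and FPKM. For the versions of HISAT2 and featureCounts, and for reads in overlapping genes: not given in the sources used here.

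R 4.3.3 ran the main test of the counts, by edgeR 4.0.16 (filterByExpr, then TMM, glmQLFit and glmQLFTest) with Benjamini-Hochberg adjustment over 16489 genes. Standard errors are the fold change over the square root of F. Single genes were also tested by exact permutation (924 splits). Symbols and coordinates are from GENCODE (GRCh38). The 572 rows without an Ensembl identifier stayed in the totals. The genes and lists were chosen with earlier results of these data known. From each list, up to 4 called genes with the smallest p-value were named, with CCND1 and CDK4. Other genes named, such as E2F3, ETS2, KMT2A, EZH2, COL1A1 and those not called, were chosen after their values were seen.

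Alternatives were RLE, upper quartile, library totals and the authors' size factors, 2 other filters, DESeq2 1.42.0, robust dispersion, limma 3.58.1 on log2(FPKM + 1) and log2(FPKM + 0.1), a replicate block, thinning and leaving out each library. The fits were tested on simulated data.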

Additional observations from a re-analysis of the deposited data

Results flagged for a closer look

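The libraries named below stood apart from the other 5 of their group by Dixon's test at its 95% critical value. Of 72 checks of named genes in a group, 5 met this, and chance gives about 1 in 20, or 3.6. For CDKN1B, sh1 replicate 3 had 29.2 CPM and the other sh1 libraries 36.7 to 40.6 CPM. CDKN1C was at 1.10 CPM in shNC replicate 3 and at 0.173 to 0.503 CPM in the other shNC libraries. MNAT1 was at 45.1 CPM in shNC replicate 5 (40.1 to 41.2 in the others), TFDP1 at 253 CPM in sh1 replicate 6 (266 to 271 in the others) and FOXO1 at 51.3 CPM in sh1 replicate 5 (41.0 to 42.7 in the others). The causes were not tested.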

How the results depend on the processing

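The 7 tested genes of the group kept their direction under all 25 alternatives. The main counts were 2 higher and 2 lower among them, 2108 higher and 2194 lower among all genes, and 13 higher and 21 lower in the fixed lists. Limma on log2(FPKM + 1) with no filter called 1 higher (RB1) and 1 lower (CCND2) among them. It gave 1364 for all genes called higher and 1173 for all genes called lower, and 6 higher in the lists. Leaving out each library gave 1 to 2 higher and 1 to 2 lower among the 7 genes, 1821 to 2438 higher and 1650 to 2208 lower among all genes, and 10 to 14 higher and 17 to 23 lower in the lists. With the replicate number as a replicate block, 1 was higher and 1 lower among the 7 genes, with CDKN1B at an adjusted p of 0.060 and CDK6 at 0.078. The labels do not say that equal numbers share a culture or day. With the group mean taken from each library, the correlation of these deviations between same-numbered libraries ran from -0.197 to 0.040. By the same measure, 0 of 6 sh1 libraries correlated best with the shNC library of its own number. Of 875 values of 35 named genes under the alternatives, 38 lost the call, 1 gained it (CCNE1) and 0 reversed a call. In the 450 counts per list, 40 moved by over 1.5 times. Scaling moved the median of all genes by under 0.1. The 22 counts of CDKN1C in 1 library and the near absence of CDKN2A and CDKN2B limit what these 3 genes can show.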
